A study of Mus musculus with 6 samples.

Results

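Interferon-stimulated genes and viral RNA sensors were compared between M0505 and STOSE cells. The group is a list of 40 mouse genes chosen by name, of which 39 had a probe set under their symbol among the 20405 genes of the array table. No row carried the symbol *Igtp*, an interferon-inducible GTPase, and it has no value here. M0505 is a line of ovarian surface epithelium (OSE), the single cell layer that covers the ovary, isolated from FVB/N mice and used at early passage. STOSE cells arose from M0505 cells by spontaneous transformation during long-term passage, so they share the strain and the tissue of origin. Both lines grew in the same serum-containing medium, and neither the labels nor the study's methods name an interferon, a virus or another stimulus for either line. Gene expression was measured on Affymetrix whole-transcript mouse arrays, 3 for each line, which the labels call biological replicates. Each condition is therefore 1 line, and the spread between arrays is the spread between cultures of that line. It cannot be told apart here whether a difference belongs to transformation or to the line and its passage number.

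Cells detect viral RNA with cytosolic helicases such as RIG-I and MDA5 and with the endosomal receptor TLR3. These sensors switch on type I interferon genes through adaptors, kinases and the interferon regulatory factors. Secreted interferon then binds its receptor, activates the kinases JAK1 and TYK2, and leads to the assembly of the complex ISGF3, which holds STAT2 and IRF9. ISGF3 binds a short motif in the promoters of interferon-stimulated genes, whose products degrade viral RNA, block its translation or hold virus at membranes. Many of these genes also have a basal level without any infection, and several encode the sensors and factors of the pathway itself.

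In STOSE cells the group did not move one way. *Ifitm3*, *Oasl1* and *Ifit2* were up-regulated at least 2-fold. *Oasl2*, *Irf9*, *Irf7*, *Mx2*, *Stat2* and *Tlr3* were down-regulated at least 2-fold, so that every called transcription factor of the group was lower. Several classical antiviral genes, among them *Isg15*, *Ifit1*, *Rsad2*, *Oas3* and *Cmpk2*, had means close to the level of unexpressed genes in both lines and did not pass the test.

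The promoters of the group are shown first, because the motif bound by ISGF3 defines the response at the sequence level. It was searched as GAAANNGAAA, or TTTCNNTTTC on the other strand, in RefSeq promoter windows of assembly GRCm38.p6 that run from 250 bases before to 50 bases after a gene's start. All 39 genes matched a RefSeq gene by symbol or synonym, and 31 had a window. *Dhx58*, *Oas2*, *Usp18*, *Mx1*, *Mx2*, *Iigp1*, *Parp9* and *Parp14* were not searched. The motif was present in 16 of these 31 windows (51.6%), against 1079 of all 27025 genes with a window (3.99%). The shorter form GAAANNGAA, or TTCNNTTTC on the other strand, which every match to the longer form also holds, was present in 19 of the 31 (61.3%) and in 9.76% of all genes. The windows of 6 genes are printed for the 250 bases before the start, in lower case with matches to either form in capitals. *Isg15* and *Ifit1* are shown as windows with several matches in genes that did not pass the test, *Stat2* as the only called-lower gene with a match, and *Oasl1*, *Oasl2* and *Ifit2* as called genes without one.
*Isg15* (chr4:156200819-156201068, strand -): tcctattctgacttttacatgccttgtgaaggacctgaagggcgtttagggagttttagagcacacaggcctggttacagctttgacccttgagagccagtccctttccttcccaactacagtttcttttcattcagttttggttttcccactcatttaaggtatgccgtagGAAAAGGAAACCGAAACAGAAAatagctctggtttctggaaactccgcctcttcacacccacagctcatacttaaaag
*Ifit1* (chr19:34640639-34640888, strand +): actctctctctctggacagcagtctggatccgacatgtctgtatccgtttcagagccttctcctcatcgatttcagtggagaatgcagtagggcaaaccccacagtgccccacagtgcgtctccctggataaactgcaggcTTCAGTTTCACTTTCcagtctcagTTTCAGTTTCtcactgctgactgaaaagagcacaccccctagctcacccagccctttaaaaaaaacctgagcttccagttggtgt
*Stat2* (chr10:128270248-128270497, strand +): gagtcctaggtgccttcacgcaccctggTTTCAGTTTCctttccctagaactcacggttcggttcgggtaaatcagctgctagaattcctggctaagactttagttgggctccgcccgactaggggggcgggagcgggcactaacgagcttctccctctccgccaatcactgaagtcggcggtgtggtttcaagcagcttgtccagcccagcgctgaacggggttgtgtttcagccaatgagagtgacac
*Oasl1* (chr5:114922990-114923239, strand +): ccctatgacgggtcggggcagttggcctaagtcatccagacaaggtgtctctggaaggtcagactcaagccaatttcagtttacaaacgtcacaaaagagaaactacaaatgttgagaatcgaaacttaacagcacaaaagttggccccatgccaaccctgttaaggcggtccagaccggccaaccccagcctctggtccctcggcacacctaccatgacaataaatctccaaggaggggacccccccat
*Oasl2* (chr5:114896684-114896933, strand +): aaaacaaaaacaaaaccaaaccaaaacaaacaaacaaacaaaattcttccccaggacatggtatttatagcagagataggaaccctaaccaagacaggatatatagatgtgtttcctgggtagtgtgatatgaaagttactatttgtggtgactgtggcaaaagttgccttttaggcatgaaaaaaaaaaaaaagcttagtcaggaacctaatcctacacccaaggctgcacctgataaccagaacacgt
*Ifit2* (chr19:34550444-34550693, strand +): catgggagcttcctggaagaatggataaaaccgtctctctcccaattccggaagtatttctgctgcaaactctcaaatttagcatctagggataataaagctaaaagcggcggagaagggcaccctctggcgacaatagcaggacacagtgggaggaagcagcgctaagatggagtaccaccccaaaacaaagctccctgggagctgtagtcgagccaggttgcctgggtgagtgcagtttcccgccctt
In *Ifitm3* both matches lie just after the start, from base 3 to base 29 (chr7:141010716-141010742, strand -), and read as follows.
*Ifitm3*: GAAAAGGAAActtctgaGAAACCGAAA
Of the called genes with a window, 1 of 3 up-regulated genes (*Ifitm3*) and 1 of 5 down-regulated genes (*Stat2*) held the longer motif. Of the 23 genes that were not called, 14 held it (60.9%). A match is a description of these letters, and its absence says only that they are not in this window.

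All array values below are log2 RMA expression values, in which 1 unit is 2-fold. To be called, a gene had to differ at least 2-fold with an adjusted p under 0.05 (limma, Benjamini-Hochberg over 20405 genes). By this rule 3 of the 39 genes were higher (7.69%) and 6 were lower (15.4%), where 4.9% of all genes were called higher and 7.59% called lower. In either direction the share was 23.1% of the group against 12.5% of all genes. Without the fold threshold 12 genes were higher and 15 lower, in all 69.2% of the group, where 31.6% of all genes were higher, 24.8% lower and 56.5% either. The arrays of the lines did not overlap for 27 of the 39 genes (69.2%), with STOSE above in 12 and below in 15, and for 64.6% of all genes (37.6% above and 27% below). These last shares lie near the background. The median log2 fold change of the group was -0.11, beside 0.08 over all genes. Centring each array on the median of its genes moved the median of all genes by 0.20 and that of the group to 0.09, so the sign of the group median depends on the scaling. The group median minus that of all genes, taken before rounding, was -0.18 in both.

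**Figure D1:**
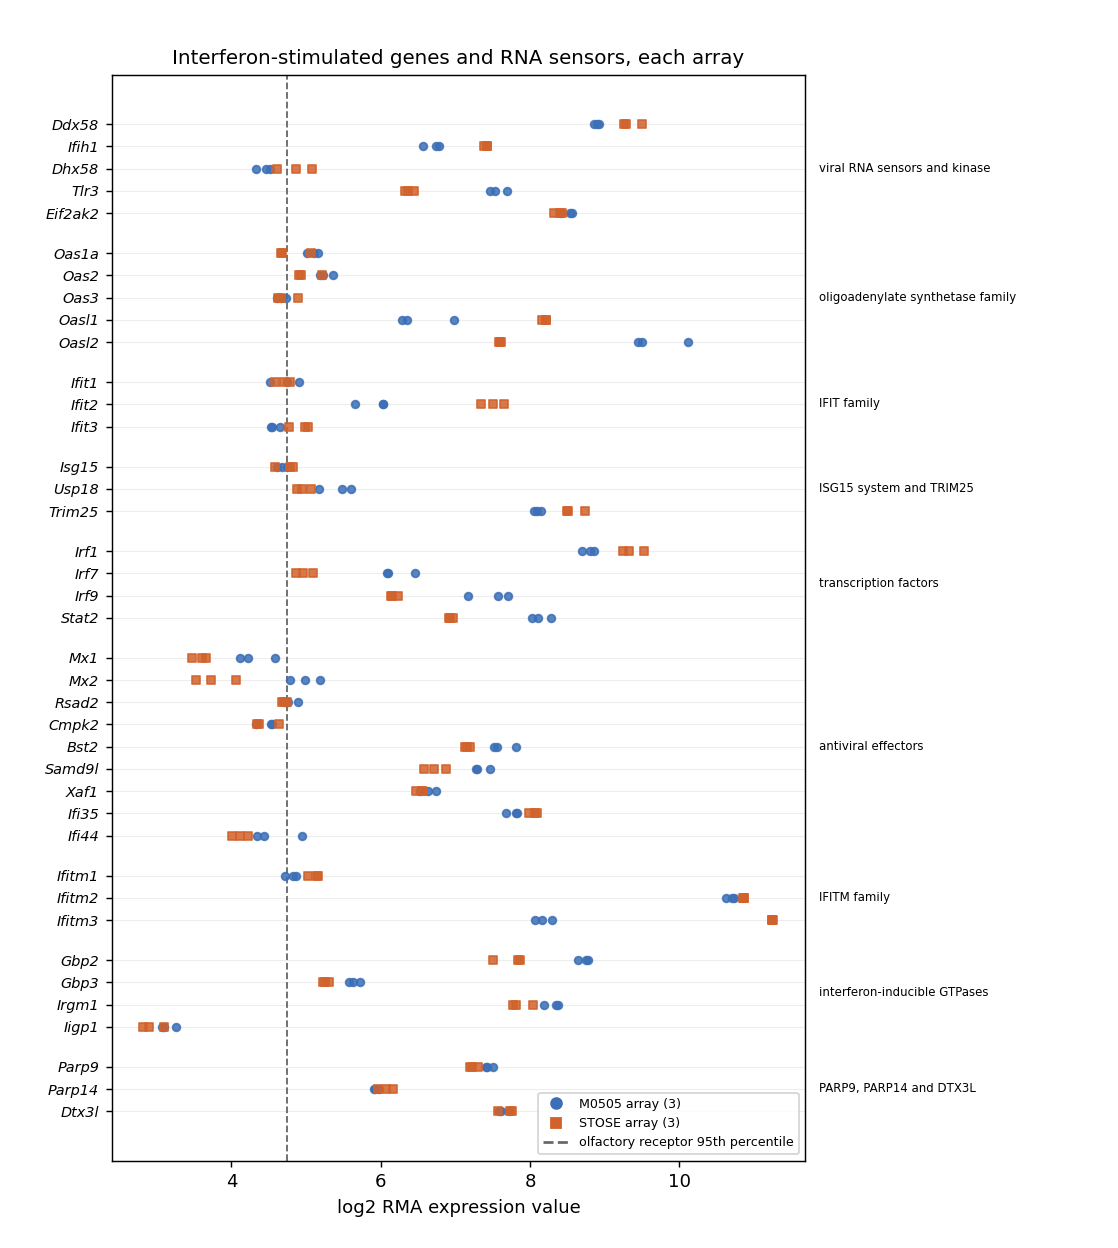
Log2 RMA expression value of each of the 39 genes (horizontal axis) in each of the 3 M0505 arrays (circles) and 3 STOSE arrays (squares), grouped by role, with the 95th percentile of olfactory receptor probe sets as a dashed line. The line means lie furthest apart for *Ifitm3*, *Oasl1*, *Oasl2* and *Ifit2*. The arrays of the lines do not overlap for 27 of the 39 genes, and 7 genes had line means left of the dashed line in both lines.

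The signal of genes not expected in these cells was taken from olfactory receptors, whose probe sets had a 95th percentile of 4.74. The means of 7 genes were under this value in both lines (*Oas3*, *Ifit1*, *Isg15*, *Mx1*, *Cmpk2*, *Ifi44* and *Iigp1*), and 28 genes were above it in both. For genes near or under 4.74, a fold change understates any true difference, and a lack of difference says little.

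Among the sensors, the cytosolic RNA helicases were higher in STOSE cells and the endosomal receptor was lower. *Tlr3*, the receptor for double-stranded RNA in endosomes, had values of 7.46, 7.69 and 7.53 in M0505 and 6.33, 6.44 and 6.36 in STOSE arrays. The arrays did not overlap, and *Tlr3* was down-regulated 2.27-fold (log2 fold change -1.18, SE 0.07, limma adjusted p = 3.24e-06). With arrays centred on the median of their genes the log2 fold change was -0.98, under 2-fold. *Ifih1*, which encodes MDA5, a sensor of long double-stranded RNA, rose by a log2 fold change of 0.72 (adjusted p = 4.62e-05), from 6.56, 6.78 and 6.74 to 7.38, 7.43 and 7.43. *Ddx58*, which encodes RIG-I, a sensor of RNA with a free triphosphate end, rose by 0.46 (adjusted p = 0.000906). *Dhx58*, which encodes the related regulator LGP2, rose by 0.41 (adjusted p = 0.0159), from an M0505 mean of 4.44 under the olfactory receptor value to 4.85. None of the 3 helicase genes reached 2-fold, and 31.6% of all genes were higher by the p threshold alone. *Dhx58* did not pass it without M0505 replicate 3 (0.36, adjusted p = 0.0605). *Eif2ak2*, the kinase PKR that halts translation on binding double-stranded RNA, had means of 8.50 and 8.38 with overlapping arrays (log2 fold change -0.12, adjusted p = 0.137).

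The oligoadenylate synthetase family makes a messenger that activates the RNA-cutting enzyme RNase L. Its members *Oasl1* and *Oasl2*, which lie next to each other on chromosome 5, changed in opposite directions. *Oasl2* had values of 10.12, 9.50 and 9.44 in M0505 and 7.59, 7.60 and 7.61 in STOSE arrays, a 4.24-fold down-regulation (log2 fold change -2.08, SE 0.16, limma adjusted p = 9.93e-06). *Oasl1*, whose product lacks synthetase activity and is known to repress translation of *Irf7* mRNA, had 6.98, 6.29 and 6.35 in M0505 and 8.21, 8.21 and 8.16 in STOSE arrays. It was up-regulated 3.14-fold (log2 fold change 1.65, SE 0.17, adjusted p = 4.84e-05). Replicate 1 of M0505 was the highest M0505 array for both genes, and without it the log2 fold changes were 1.87 for *Oasl1* and -1.87 for *Oasl2*. The enzymes *Oas1a* (log2 fold change -0.29, adjusted p = 0.0507), *Oas2* (-0.24, adjusted p = 0.0558) and *Oas3* (0.06, adjusted p = 0.578) did not pass the test, and their means lay between 4.67 and 5.26. The log2 difference *Oasl1* minus *Oasl2* within an array ran from -3.22 to -3.09 in M0505 and from 0.54 to 0.61 in STOSE cells. The changes of the neighbouring genes thus differed by 3.73.

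IFIT proteins bind viral RNA and the translation machinery. *Ifit2* had values of 5.65, 6.03 and 6.03 in M0505 and 7.65, 7.51 and 7.34 in STOSE arrays. The arrays did not overlap, and *Ifit2* was up-regulated 3.02-fold (log2 fold change 1.60, SE 0.12, limma adjusted p = 9.49e-06). Its neighbour *Ifit3* rose by 0.36 (adjusted p = 0.00589) across the olfactory receptor value, from a mean of 4.57 to 4.93. *Ifit1*, with 3 matches to the shorter motif in its window printed above, had means of 4.72 and 4.69 (adjusted p = 0.83). The change of *Ifit2* was 1.62 larger than that of *Ifit1* and 1.24 larger than that of *Ifit3*.

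IFITM proteins sit in membranes and restrict the entry of enveloped viruses, and their genes lie together on chromosome 7. *Ifitm3*, the member best known for this role, showed the largest change of the 39 genes. Its values were 8.07, 8.30 and 8.16 in M0505 and 11.24, 11.24 and 11.26 in STOSE arrays, an 8.40-fold up-regulation (log2 fold change 3.07, SE 0.07, limma adjusted p = 1.23e-08). It ranked 64 by fold among the 1000 genes called higher. *Ifitm2* was bright in both lines, with means of 10.68 and 10.86 (log2 fold change 0.18, adjusted p = 0.0284), and its other probe sets gave 0.25 and 0.21. With 1 array left out its adjusted p reached 0.0748 (without STOSE replicate 3), and it passed only without M0505 replicate 2. *Ifitm1* had means of 4.80 and 5.11 (log2 fold change 0.31, adjusted p = 0.00384), and 0.11 by its other probe set. The change of *Ifitm3* exceeded that of *Ifitm2* by 2.89 and that of *Ifitm1* by 2.76. The 5 pairs of paralogs were chosen after their values were seen, so these differences are given as a description, with no test. Paralogs are similar in sequence, and how far their probes are shared was not tested.

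**Figure D2:**
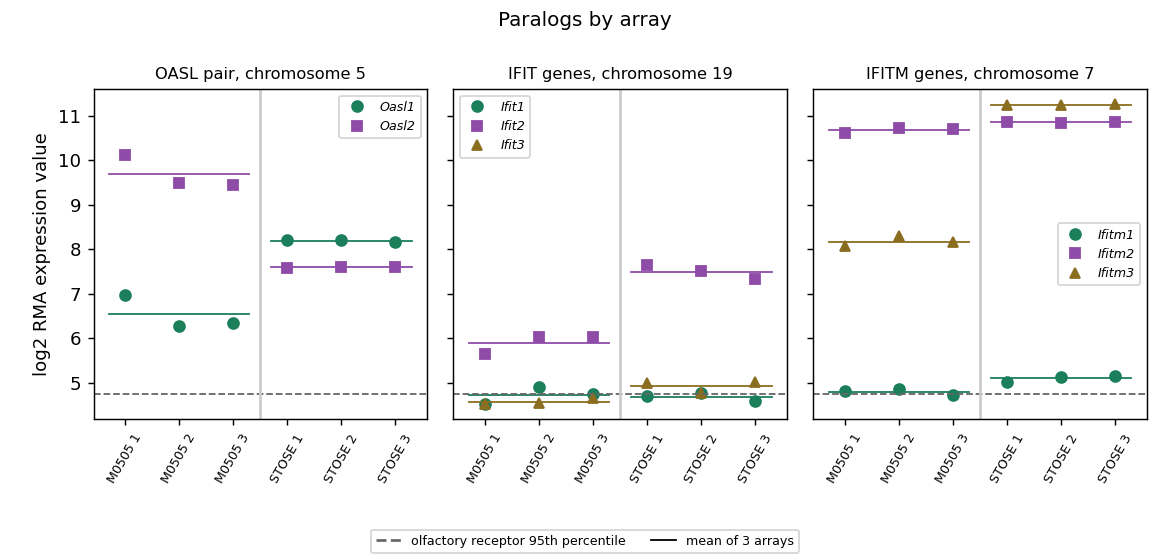
Log2 RMA expression value (vertical axis) in each of the 6 arrays for the OASL pair, the IFIT genes and the IFITM genes, with the mean of each line as a solid line and the olfactory receptor 95th percentile as a dashed line. *Oasl1* rises while *Oasl2* falls, *Ifit2* rises while *Ifit1* stays near the dashed line, and *Ifitm3* rises from a mean of 8.18 to 11.25 while *Ifitm2* moves from 10.68 to 10.86.

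Among the roles, the transcription factors of the response had the largest share of called genes, 3 of 4, all lower. Of all genes 12.5% were called and 7.59% were called lower. Each role holds few genes, so a share within a role is imprecise. *Stat2*, which encodes a subunit of ISGF3, had values of 8.10, 8.28 and 8.02 in M0505 and 6.97, 6.93 and 6.91 in STOSE arrays. It was down-regulated 2.29-fold (log2 fold change -1.20, SE 0.08, limma adjusted p = 3.18e-06), or by a log2 fold change of -0.998, just under 2-fold, with arrays centred on the median of their genes. *Irf9*, the DNA-binding part of ISGF3, had 7.17, 7.70 and 7.57 in M0505 and 6.14, 6.15 and 6.23 in STOSE arrays. Its down-regulation was 2.47-fold (log2 fold change -1.30, SE 0.13, adjusted p = 3.74e-05). *Irf7*, the factor that amplifies interferon production, had 6.08, 6.46 and 6.10 in M0505 and 4.87, 5.09 and 4.96 in STOSE arrays, where it came close to the olfactory receptor value. It was 2.36-fold lower (log2 fold change -1.24, SE 0.11, adjusted p = 2.50e-05). For each of these 3 genes every STOSE array lay below every M0505 array. *Irf1*, a factor induced mainly by interferon gamma and by inflammatory signals, rose by 0.58 (adjusted p = 0.0004), from 8.86, 8.80 and 8.70 to 9.52, 9.33 and 9.25, and by 0.27 by its dimmer probe set.

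Of the 9 antiviral effectors, 1 was called, 4 others were lower and 1 was higher past the p threshold without reaching 2-fold. Of all genes 12.5% were called, and by the p threshold alone 24.8% were lower and 31.6% higher. *Mx2*, whose family of dynamin-like GTPases traps viral components, had values of 4.98, 5.19 and 4.78 in M0505 and 3.52, 3.73 and 4.06 in STOSE arrays. It was 2.32-fold lower (log2 fold change -1.21, SE 0.15, limma adjusted p = 0.000157), but only the M0505 arrays were above the olfactory receptor value. *Mx1* fell by 0.73 on the log2 scale (adjusted p = 0.000898) with both means under that value, and RefSeq lists both Mx genes as transcribed pseudogenes in the reference strain. *Samd9l*, a restriction factor that limits translation, fell by 0.62 (adjusted p = 0.000506). *Bst2*, which encodes tetherin, the protein that holds budding virus at the cell surface, fell by 0.48 (adjusted p = 0.00136), from 7.81, 7.56 and 7.52 to 7.15, 7.13 and 7.19. *Ifi44* fell by 0.45 (adjusted p = 0.0304) with both means under the olfactory receptor value, and did not pass without STOSE replicate 1 (adjusted p = 0.06) or 2 (adjusted p = 0.0883). *Ifi35*, an interferon-induced regulator of the response, rose by 0.28 (adjusted p = 0.00668). *Rsad2*, which encodes viperin, had means of 4.78 and 4.71 (adjusted p = 0.347), and *Cmpk2*, which lies beside it on chromosome 12, had 4.47 and 4.45 (adjusted p = 0.903). *Xaf1*, linked to apoptosis, had 6.63 and 6.52 (adjusted p = 0.223).

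The ubiquitin-like modifier ISG15 is attached to proteins after interferon treatment and removed by USP18, which also restrains the interferon receptor. *Isg15*, with 3 motif matches in the window above, had means of 4.68 and 4.73 in M0505 and STOSE cells and overlapping arrays (log2 fold change 0.06, adjusted p = 0.557). *Usp18* fell by 0.46 (adjusted p = 0.00809), from a mean of 5.42 to 4.96, but by 0.26 with arrays centred on the median of their genes (adjusted p = 0.0677). *Trim25*, the ubiquitin ligase that activates RIG-I, had 8.09, 8.14 and 8.05 in M0505 and 8.73, 8.51 and 8.49 in STOSE arrays, a rise of 0.48 (SE 0.08, limma adjusted p = 0.000743).

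The 4 measured interferon-inducible GTPases, which attack membranes around intracellular microbes, all had lower means in STOSE cells, and 3 passed the p threshold. By that threshold alone 24.8% of all genes were lower, and 4 genes are few to set against this share. *Gbp2* had values of 8.64, 8.77 and 8.75 in M0505 and 7.51, 7.84 and 7.87 in STOSE arrays (log2 fold change -0.98, SE 0.10, limma adjusted p = 5.31e-05). It lay just short of 2-fold, and reached it without replicate 1 of M0505 (-1.02), replicate 2 of STOSE (-1.03) or replicate 3 of STOSE (-1.05). *Irgm1* fell by 0.43 (adjusted p = 0.00308) and *Gbp3* by 0.38 (adjusted p = 0.000865). With arrays centred on the median of their genes the falls were smaller, at -0.23 for *Irgm1* and -0.18 for *Gbp3*. *Iigp1* had means of 3.14 and 2.94, far under the olfactory receptor value (adjusted p = 0.0825).

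*Parp9*, *Parp14* and *Dtx3l* encode ADP-ribosyltransferases and a ubiquitin ligase that partners with PARP9, and they moved least. *Dtx3l* had 7.61, 7.72 and 7.58 in M0505 and 7.76, 7.73 and 7.57 in STOSE arrays, with overlap and a log2 fold change of 0.05 (SE 0.07, limma adjusted p = 0.597). *Parp9* fell by 0.21 (adjusted p = 0.0184), but had -0.01 with arrays centred on the median of their genes (adjusted p = 0.872) and -0.07 after a further quantile normalization (adjusted p = 0.408), and did not pass without M0505 replicate 2, STOSE replicate 1 or STOSE replicate 3 (adjusted p = 0.0674, 0.0525 and 0.0532). *Parp14* had a log2 fold change of 0.13 (adjusted p = 0.134).

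**Figure D3:**
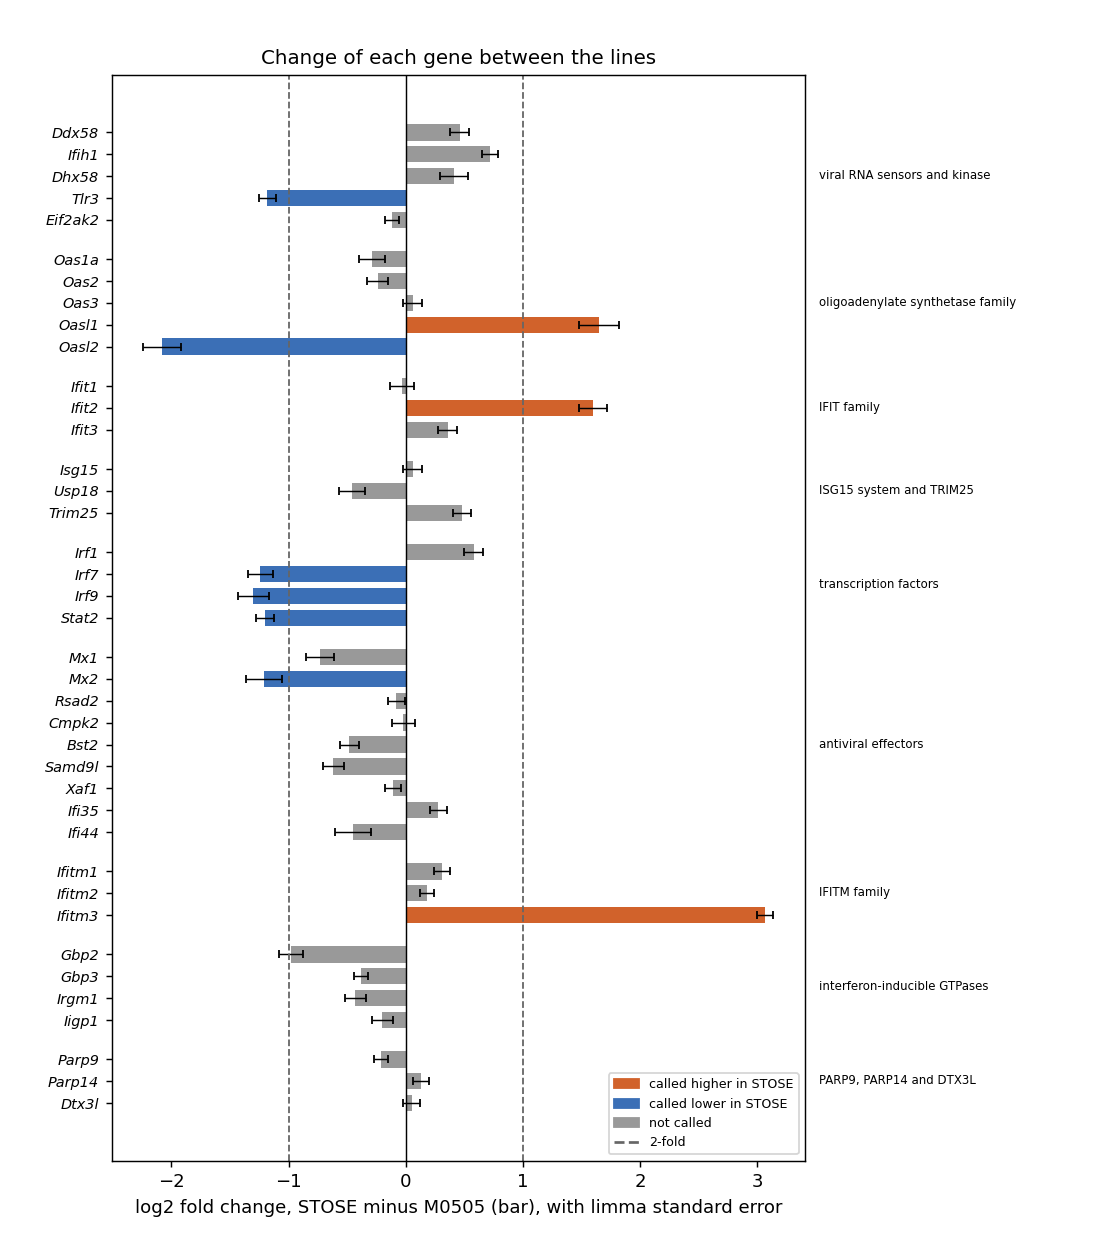
Log2 fold change of each of the 39 genes, STOSE minus M0505 (horizontal axis, bars), with the standard error of limma as error bars and 2-fold as dashed lines. The 3 called-higher genes reach 1.60 to 3.07, the 6 called-lower genes reach -1.18 to -2.08, and 30 genes are not called.

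Ranked by fold among the genes called in the same direction, *Oasl1* was at 291 and *Ifit2* at 322 of 1000, *Oasl2* at 465 of 1548, and the other called-lower genes between 1033 and 1210. The sign of each of the 9 called genes was the same when any array was left out, and each stayed at least 2-fold. Their log2 fold changes with 1 array left out ran from 3.02 to 3.13 for *Ifitm3*, from 1.52 to 1.87 for *Oasl1*, from 1.47 to 1.68 for *Ifit2* and from -2.20 to -1.87 for *Oasl2*.

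The rest of the pathway was read from 4 further lists, which together named 106 genes, of which 100 were on the array. Among these 100 genes 8 were called higher (8%) and 14 lower (14%), where the shares over all genes were 4.9% and 7.59%, and the median log2 fold change was 0.00. With arrays centred on the median of their genes the counts were 11 and 10.

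Of 19 measured interferon genes 1 was called, and 10 had both line means under the olfactory receptor value. Without the fold threshold 6 of the 19 were higher and 1 lower, against 31.6% and 24.8% of all genes. *Ifnb1*, the interferon beta gene, had values from 3.92 to 3.98 in M0505 and from 3.94 to 3.97 in STOSE arrays (log2 fold change 0.01, limma adjusted p = 0.907). *Ifnz* was called higher (log2 fold change 1.04, adjusted p = 0.00016), with 5.65, 5.51 and 5.51 against 6.90, 6.45 and 6.42. Without replicate 1 of STOSE its change was 0.88, and averaged over its probe sets it was 0.61, so neither reached 2-fold.

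Of 14 genes of receptors, kinases and feedback, 9 were lower and 2 higher past the p threshold of limma, where 24.8% of all genes were lower and 31.6% higher. The receptor subunits had log2 fold changes of -0.26 for *Ifnar1* (adjusted p = 0.00926), -0.41 for *Ifnar2* (adjusted p = 0.00165), -0.30 for *Ifngr1* (adjusted p = 0.0137) and -0.66 for *Ifngr2* (adjusted p = 5.25e-05). With arrays centred on the median of their genes *Ifnar1* (-0.06, adjusted p = 0.444) and *Ifngr1* (-0.10, adjusted p = 0.293) did not pass the test, and without M0505 replicate 2 or 3 the adjusted p of *Ifngr1* was 0.0546 or 0.0538. *Jak1* fell by 0.75 (adjusted p = 5.70e-06), and *Tyk2* had overlapping arrays (-0.14, adjusted p = 0.263).

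**Figure D4:**
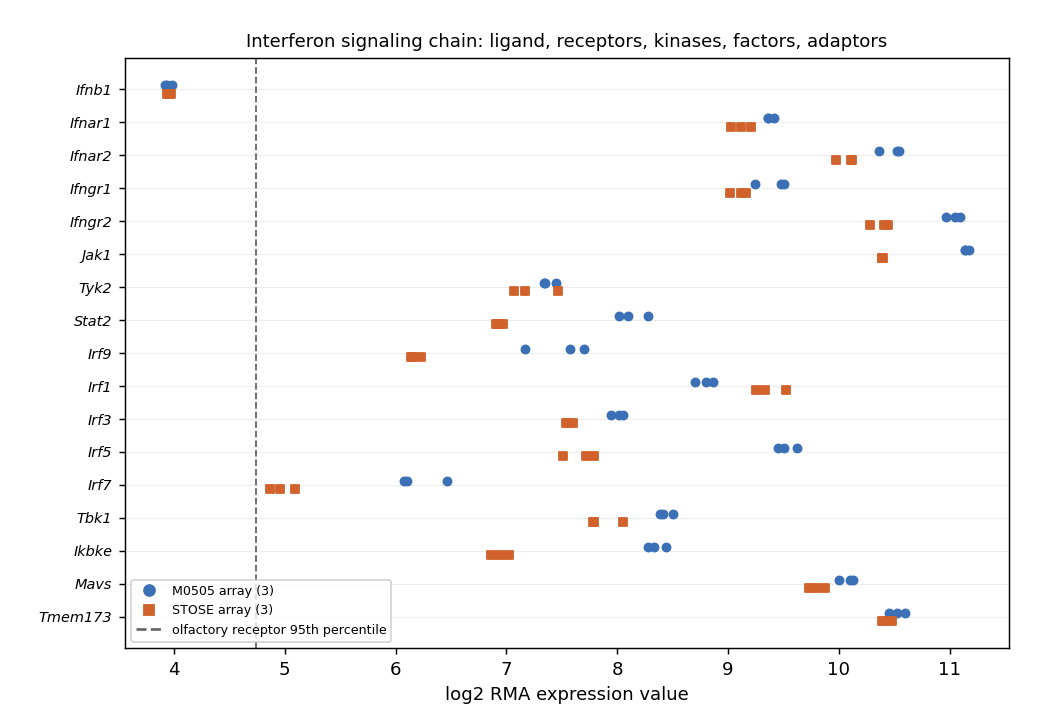
Log2 RMA expression value (horizontal axis) in each of the 3 M0505 arrays (circles) and 3 STOSE arrays (squares) for the chain from interferon beta through receptors, kinases, transcription factors and adaptors. *Ifnb1* lies under the olfactory receptor 95th percentile (dashed line) in both lines. The called genes *Stat2*, *Irf9*, *Irf7*, *Irf5* and *Ikbke* lie lower in STOSE arrays, and *Irf1* lies higher. *Ifnar1*, *Ifnar2*, *Ifngr1*, *Ifngr2*, *Jak1*, *Irf3*, *Tbk1* and *Mavs* also lie lower without overlap, each by less than 2-fold.

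Among 20 genes of adaptors, kinases and other nucleic acid sensors, 3 were called higher (15%) and 4 lower (20%), against 4.9% and 7.59% of all genes. The called-higher genes were sensors. *Tlr7*, the endosomal receptor for single-stranded RNA, had 4.05, 3.97 and 4.04 in M0505 and 8.09, 8.12 and 7.96 in STOSE arrays (log2 fold change 4.04, SE 0.06, limma adjusted p = 3.08e-09). It was opposite in direction to *Tlr3*, the RNA-sensing receptor of the group itself. *Aim2*, a sensor of cytosolic DNA, had a log2 fold change of 3.20 (adjusted p = 3.08e-07). *E330016A19Rik*, the symbol in the table for the DNA sensor *Cgas*, had one of 1.95 (adjusted p = 8.62e-08). The M0505 means of *Tlr7*, *Aim2* and *Cgas* were all under the olfactory receptor value. The called-lower genes were *Irf5* (-1.85), *Tlr4* (-1.43), *Ikbke* (-1.41) and *Rnf135* (-1.06), of which RNF135 is a ubiquitin ligase for RIG-I and IKBKE a kinase of IRF3 and IRF7. *Rnf135* was under 2-fold in 2 scalings, at -0.88 after a further quantile normalization and -0.86 with arrays centred on the median of their genes. The central relays changed less, with log2 fold changes of -0.28 for *Mavs* (adjusted p = 0.00698, or -0.08 and 0.264 with arrays centred on the median of their genes), -0.56 for *Tbk1* (adjusted p = 0.000581), -0.44 for *Irf3* (adjusted p = 0.000287) and -0.09 for *Tmem173*, which encodes STING (adjusted p = 0.236).

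Of 47 further interferon-stimulated genes, 4 were called higher (8.51%) and 9 lower (19.1%), against 4.9% and 7.59% of all genes. The larger rises were in *Ifi205* (4.00), a member of the interferon-inducible family that holds AIM2, *Slfn2* (1.95) and *Sp100* (1.82), a nuclear body protein. The larger falls were in *Ly6e* (-2.49), *Gbp9* (-2.23), *Oas1c* (-1.60), *Tor3a* (-1.37) and *Ifi27l1* (-1.27). *Ifi205* and *Slfn2* started under the olfactory receptor value in M0505 cells, with means of 4.38 and 4.70.

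**Figure D5:**
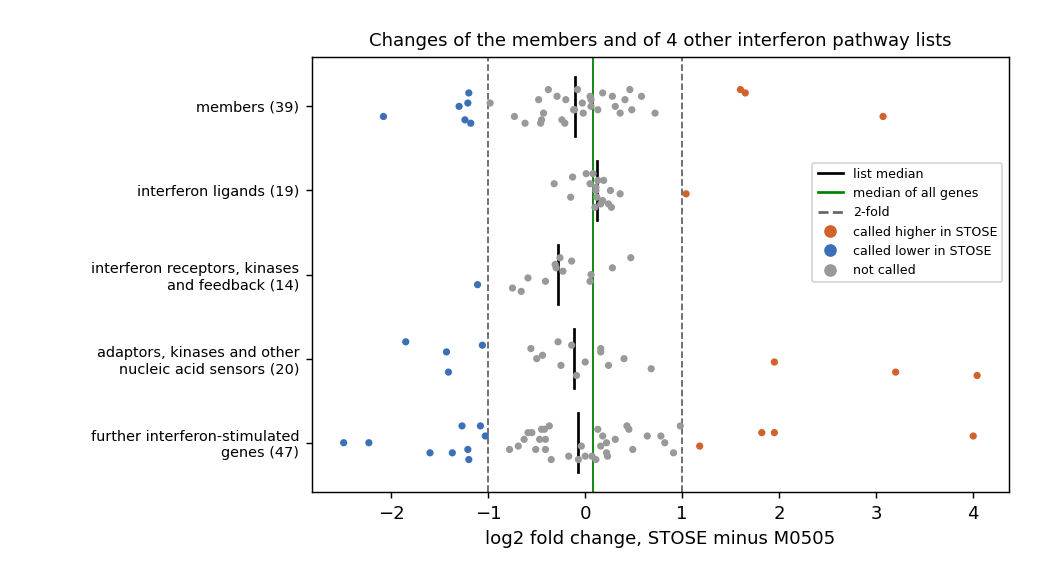
Log2 fold change, STOSE minus M0505 (horizontal axis), of each of the 39 genes and of each gene in 4 other interferon pathway lists (19, 14, 20 and 47 genes), with the median of each list as a black line, the median of all genes (0.08) as a green line and 2-fold as dashed lines. Each list spreads to both sides, and list medians lie between -0.28 and 0.12.

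The identity of the cells was read from marker genes. Of 9 markers of ovarian surface epithelium and mesothelium, 8 were above the olfactory receptor value in both lines, and 4 were called lower in STOSE cells, with *Krt19* at -5.56 and *Krt8* at -4.55. Their summed linear signal ran from 22089 to 23074 in M0505 and from 10628 to 11707 in STOSE arrays. Immune cells carry many interferon-stimulated genes, and 7 of 9 leukocyte markers were under the olfactory receptor value in both lines, including the pan-leukocyte gene *Ptprc* and the macrophage genes *Emr1* and *Csf1r*. The exceptions were *Cd3e*, with means of 5.09 and 5.31, and *Cd68*, a lysosomal gene also expressed outside macrophages, which fell from 9.78 to 6.96. The summed signal of the leukocyte list ran from 872 to 1129 in M0505 and from 279 to 319 in STOSE arrays, and without *Cd68* from 151 to 155 and from 163 to 176. Of 4 endothelial markers 1 was called, *Kdr*, lower at -5.17, and the sum of the list ran from 819 to 897 and from 101 to 102, or without *Kdr* from 80 to 83 and from 78 to 84. The part of the epithelial, *Cd68* or *Kdr* changes in the interferon-stimulated genes was not tested, and in RNA of whole cultures fewer cells of a type and less RNA per cell cannot be told apart.

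Over all 28944 probe sets, with or without a symbol, the array medians were alike, between 5.64 and 5.68. Over the genes alone the medians of the lines were less alike. Centring on the median of the genes moved the median log2 fold change by 0.20, from 0.08 to 0.28, and centring on all probe sets by 0.01. The correlation across genes was 0.997 to 0.999 between arrays of a line and 0.943 to 0.95 between lines. In all, 1000 genes were called higher and 1548 lower, or 1466 and 1177 with arrays centred on the median of their genes.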

How the data were processed

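RNA of M0505 and STOSE cells was labelled from 300 ng and hybridized to 6 arrays, 3 per line. The authors deposited log2 values from RMA, a method that subtracts background, gives all arrays the same distribution of signals and merges the probes of a probe set into 1 value. Affymetrix Expression Console is named in the submitters' processing notes, and the genome build and annotation release are not given in the sources used here. The same deposited table holds the mean of each line and a fold change computed from these means, which were not used, and 0 columns of per-array values were left over. RMA pulls low signals toward a common floor, which compresses the fold changes of dim genes, and arrays have no read depth, so their number limits the precision.

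Of 28944 probe sets 23530 had a symbol and stood for 20405 genes, and 1613 genes had more than 1 probe set, of which the one with the highest mean was kept. The lines were compared in R 4.3.3 with limma 3.58.1 (lmFit, then eBayes, without covariates, prior degrees of freedom 4.07) and with Benjamini-Hochberg adjustment over all genes. On simulated arrays of the same 20405 genes for M0505 against STOSE, the fit recovered 199 of 200 changed genes with 0 false calls. The noise was drawn independently for each gene, and far fewer genes changed than in these data. Every planted change was larger than those of *Tlr3*, *Stat2*, *Mx2*, *Irf7* and *Irf9*. Recovery of changes near 2-fold was therefore not measured. The 95th percentile of 1134 olfactory receptor probe sets served as the level of unexpressed genes and was exceeded by 69.8% of all gene values. The labels do not say whether the replicate numbers pair the arrays, and the main fit left them unpaired. Between same-numbered arrays of the lines, the deviations from the line means correlated at 0.26, 0.04 and 0.25. Between arrays with different numbers the correlations ran from -0.29 to 0.12.

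The genes of the group and all lists were chosen with earlier results of these data known. Every gene of the group is named, with values of each array for the called ones and, where a role had none, for the one with the highest mean. Array values of *Ifih1*, *Irf1*, *Bst2* and *Ifi44* are given beyond this. In the other pathway lists the called genes were named, up to 8 per list by size, with a fixed set of ligands, receptors, kinases and adaptors. Some results under this rule are not reported here. Promoters came from RefSeq (GRCm38.p6). Alternatives were a further quantile normalization, centring, averaging the probe sets of a gene, filters that removed the dimmest 25% or 50% of genes, a robust trended limma fit, a plain t-test in place of limma, other fold thresholds, a replicate block and leaving out each array. Centring on all probe sets was added after seeing the data.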

Additional observations from a re-analysis of the deposited data

How the results depend on the processing

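The 3 higher and 6 lower genes were counted again under every alternative. The counts were 12 and 15 without a fold threshold and 1 and 1 at 4-fold. Over all genes they were 6454 and 5066, and 186 and 509. In the other pathway lists they were 33 and 40, and 3 and 2. With the dimmest 50% of genes left out only 1 gene of those lists was called higher. The count of lower genes of the group was 4 with that filter and with arrays centred on the median of their genes, 5 without the dimmest 25%, and 6 to 7 with 1 array left out, while the count of higher genes was 3 in all of these. A plain t-test gave 3 and 6, with and without adjustment. The replicate block also gave 3 and 6, with 1001 and 1548 over all genes. Whether the numbers pair the arrays is not stated in the labels.

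The median of the group was 0.09 with arrays centred on the median of their genes, and ran from -0.14 to -0.06 with 1 array left out, the latter without M0505 replicate 2. That centring turned the sign of *Eif2ak2* (0.08), *Ifit1* (0.17), *Rsad2* (0.12), *Cmpk2* (0.18), *Xaf1* (0.09), *Tmem173* (0.11) and *Tyk2* (0.06). A further quantile normalization turned that of *Oas3* (-0.01), *Isg15* (-0.01), *Xaf1* (0.09) and *Ifnb1* (-0.08). With 1 array left out, values spanned 0 and ran from -0.03 to 0.11 for *Oas3*, from -0.13 to 0.07 for *Ifit1* and from -0.11 to 0.04 for *Cmpk2*, and from 0.00 to 0.02 for *Ifnb1*. None of these 10 genes passed the test in the comparison as reported, and the cause of each turn was not tested. Of the 27 genes of the group past the p threshold, 22 stayed past it under every alternative run on single genes. *Dhx58*, *Usp18*, *Ifi44*, *Ifitm2* and *Parp9* did not, and by the plain t-test with adjustment p was 0.0867, 0.0601 and 0.134 for *Dhx58*, *Usp18* and *Ifi44*. Of 601 values of single genes of the group under alternatives, 581 kept both direction and call. Signal over background limits the 7 genes with both means under the olfactory receptor value, for which a change could be hidden.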

Other observations

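The M0505 arrays differed among themselves in these genes. Replicate 2 was the highest M0505 array for 26 of the 39 genes (66.7%), where it was the highest for 37.5% of all genes. *Irf7*, *Irf9*, *Stat2*, *Tlr3*, *Mx1*, *Mx2*, *Usp18* and *Ifi44* were among them, most plainly *Ifi44*, with 4.95 in replicate 2 against 4.34 and 4.43. Replicate 1 was the highest for 7 genes, including *Oasl1* (6.98 against 6.29 and 6.35), *Oasl2* (10.12 against 9.50 and 9.44) and *Bst2* (7.81 against 7.56 and 7.52). In STOSE cells the highest array was replicate 1 for 10 of the genes (25.6%), replicate 2 for 13 (33.3%) and replicate 3 for 16 (41%). Over all genes these shares were 40.9%, 29% and 30.1%, and whether the STOSE arrays depart from this background was not tested. *Oasl1*, *Oasl2* and *Ifitm3* had SDs of 0.03, 0.01 and 0.01 in STOSE cells against 0.39, 0.37 and 0.11 in M0505 cells. These patterns were noticed after the values were seen, with 3 arrays per line, and what set the arrays of a line apart was not tested.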
